A study of Homo sapiens with 6 samples.

Results

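The genes described here are the TRAF adaptors and TANK, measured as messenger RNA in A549, a widely used human cell line from a lung adenocarcinoma. They were chosen by gene symbol from a list of 7 (TRAF1 to TRAF6 and TANK), and 6 of the 7 had a probe set, 1 each, among the 8746 probe sets of the array. TRAF2 had no probe set under its own symbol in the probe table and was not analysed here. The list was built around TRAF4, which an earlier reading of the same arrays had shown to be higher after cisplatin, so the values of cisplatin against control are given for these genes as a description, with no p-value. Whether they passed the fit across all probe sets is given as a count from which nothing is read. On 3 arrays (cisplatin 1 to 3) the cells had been exposed for 1 hour to 50 µM cisplatin, which forms platinum crosslinks in DNA. On the other 3 (control 1 to 3) they had spent the hour in growth medium without drug. All cells were then washed and left for 10 hours in drug-free medium before total RNA was extracted, and the series describes 3 independent experiments. Every culture was of the same single cell line, and no other time or dose was measured.

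TRAF proteins are adaptors and, in most members, ubiquitin ligases that bind the inner tails of TNF family receptors and of the receptors for interleukin 1 and for microbial products. They pass the signal to kinases that activate NF-kB and the stress kinases JNK and p38. TRAF1 lacks the RING domain that the other TRAF proteins carry. TRAF4 also acts at cell junctions and in TGF-beta receptor signalling, and is known as a gene that p53, the transcription factor of the DNA damage response, can induce. TANK binds TRAF proteins and the kinase TBK1, which activates interferon regulatory factors. The question is how TRAF4 stood against its relatives 10 hours after the drug had been removed.

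The promoter of TRAF4 is shown because this was the member whose groups did not overlap, and because p53 binds pairs of half-sites whose core is often CATG. The sequence is the 250 bases before the RefSeq start of the gene (GRCh38.p14), with each CATG in capitals.
TRAF4, chr17:28743761-28744010, plus strand: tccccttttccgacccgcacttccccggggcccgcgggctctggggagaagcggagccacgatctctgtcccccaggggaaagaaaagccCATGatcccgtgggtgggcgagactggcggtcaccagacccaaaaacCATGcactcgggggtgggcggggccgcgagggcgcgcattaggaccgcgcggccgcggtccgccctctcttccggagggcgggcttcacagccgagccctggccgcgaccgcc
It held CATG 2 times, 160 and 113 bases before the start. Of all 35116 promoter windows of 300 bases, 22.6% held it 2 or more times and 54.9% at least once. Of the other members, 1 window of TRAF1 held it 3 times, and another window of TRAF1, the window of TRAF2 and 1 window of TANK held it once each. CATG reads the same on both strands. The whole p53 half-site decamer, RRRCWWGYYY (R is A or G, W is A or T, Y is C or T), was searched on both strands. Its core can be CATG but also CAAG, CTTG or CTAG, so a decamer need not hold a CATG. The decamer was found in 0 of the 12 windows of the 7 genes and in 6.63% of all windows. The window runs from 250 bases before to 50 after the start, so this count says nothing of sites elsewhere in the gene.
The NF-kB decamer, searched on both strands, was found in 11.3% of all windows and in the windows of a pair of members, shown with 20 bases on either side and the match in capitals.
TRAF3, chr14:102777396-102777445, plus strand: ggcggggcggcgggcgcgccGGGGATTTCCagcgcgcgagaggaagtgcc
TANK, chr2:161136897-161136946, plus strand: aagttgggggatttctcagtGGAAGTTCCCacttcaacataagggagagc
These matches lay 33 bases before the start of TRAF3 and 46 bases before a start of TANK. None was found in the windows of TRAF1, TRAF2, TRAF4, TRAF5 or TRAF6. A match is a run of letters and not a measured binding site.

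The arrays were alike in brightness, with median intensities of 57.2 to 67.2, and their number limits the precision of every value. Control 1 and cisplatin 2 stood apart from the others on the first principal component, so results are also given without both. The ratio of 3′ to 5′ signal for ACTB, which rises as RNA breaks down, was 3.67, 2.67 and 2.94 on cisplatin 1 to 3 and 2.20, 2.98 and 2.95 on control 1 to 3. Of 6 epithelial markers, the keratins KRT8, KRT18 and KRT7 averaged 1957, 5595 and 1950 after cisplatin and 2145, 5810 and 2243 in control cells, KRT19 averaged 143 after cisplatin and 131 in control cells, and EPCAM and CDH1 lay between 26.1 and 46.1 on every array. Of the 11 probe sets for markers of blood, endothelial and fibroblast cells, LUM, VWF, CDH5 and PTPRC were too dim to be tested, and COL1A1 was the brightest, with means of 95.5 after cisplatin and 102 in control cells; 0 of these 11 had groups that did not overlap.

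TRAF4 was higher on every cisplatin array than on any control array. Its intensity was 319.5, 259 and 388 on cisplatin 1 to 3, against 164, 211 and 163 on control 1 to 3. The lowest cisplatin value, on cisplatin 2, stood above the highest control value, on control 2, so the groups did not overlap. The means were 322 ± 64.2 after cisplatin and 179 ± 27.1 in control cells (SD, n = 3 each), a ratio of 1.79. On the scale of log2 intensity with an offset of 11.8, which makes folds of dim probe sets smaller, the difference was 0.80 (SE 0.17, 95% interval 0.42 to 1.17 of the limma fit), a 1.74-fold difference. Of the 6559 probe sets bright enough to be tested, 22 had a larger log2 fold. For scale, the cyclin-dependent kinase inhibitor gene CDKN1A had a log2 fold of 2.42 and the death receptor gene FAS one of 1.98 on the same arrays. More TRAF4 RNA per cell and a larger share of cells with TRAF4 RNA cannot be told apart in such extracts.

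TRAF4 was not among the probe sets that passed the threshold of the fit across all probe sets (limma, Benjamini-Hochberg adjusted p under 0.05), and neither was any other member, 0 of 6 against 0.29% of all tested probe sets (19 of 6559), 0.213% with a rise and 0.0762% with a fall. Groups that did not overlap were found for 1 of the 6 members and for 11% of all tested probe sets, 7.42% with cisplatin higher and 3.57% with cisplatin lower. All 6 members were bright enough to be tested. Because the genes were chosen with these arrays in view, nothing is read from these shares.

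**Figure D1:**
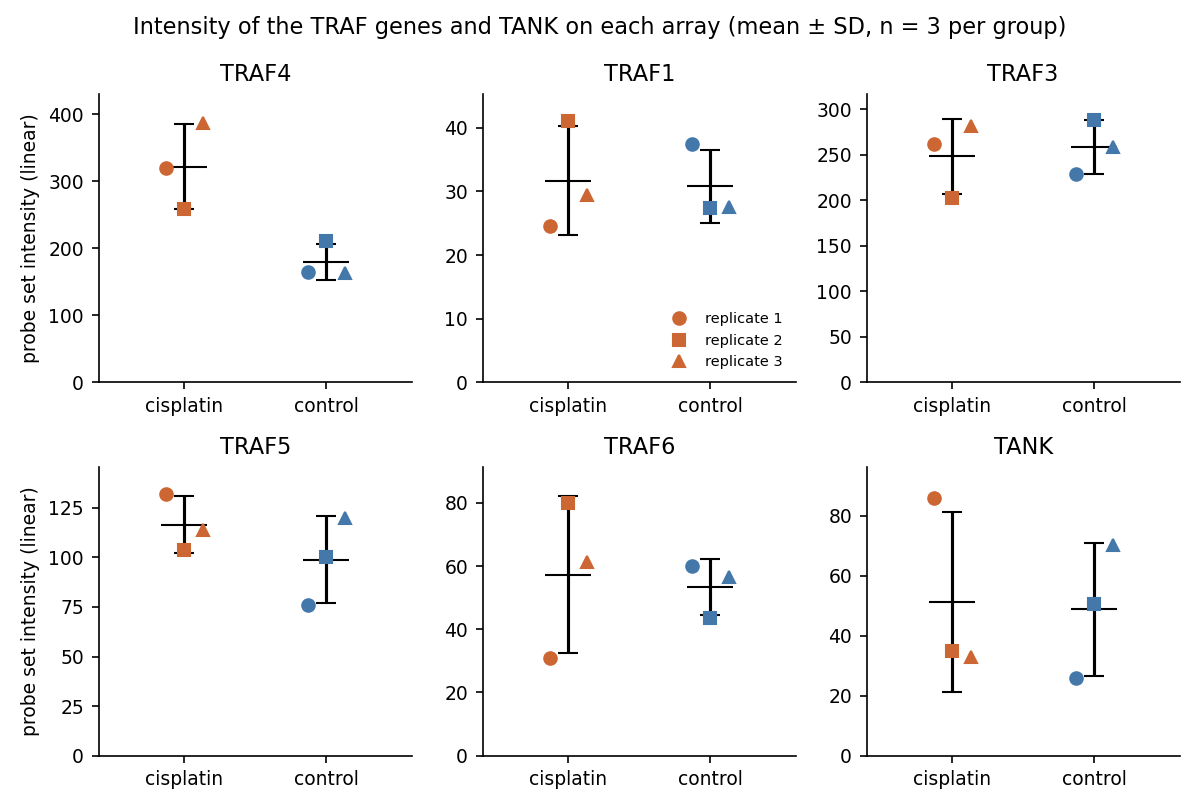
Probe set intensity on a linear scale for each gene, with cisplatin arrays on the left and control arrays on the right of each panel; symbols mark the replicate number, and bars are the mean ± SD (n = 3). TRAF4 ran from 259 to 388 on cisplatin arrays and from 163 to 211 on control arrays, while the groups of the other 5 genes overlap.

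TRAF1, the TRAF protein without a RING domain and a gene that NF-kB induces in many cells, was dim and did not separate the groups. Its intensity was 24.5, 41.1 and 29.4 on cisplatin 1 to 3 and 37.4, 27.4 and 27.6 on control 1 to 3. The highest value in each group came from the array that stood apart, cisplatin 2 and control 1. Its log2 fold was 0.02 (SE 0.20, 95% interval -0.44 to 0.48).

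TRAF3, which restrains the non-canonical NF-kB pathway and takes part in interferon induction, was of similar size in both groups. It had intensities of 261, 202 and 281 on cisplatin 1 to 3, against 228, 288 and 258 on control 1 to 3. The lowest and the highest of the 6 values were those of cisplatin 2 and control 2. The log2 fold was -0.06 (SE 0.15, interval -0.40 to 0.28), the 1 negative value among the 6 genes. As for TRAF4, cisplatin 3 was the highest and cisplatin 2 the lowest of the treated arrays, and control 2 was the highest of the controls.

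TRAF5, which acts beside TRAF2 at several TNF family receptors, had the largest log2 fold after TRAF4 with all arrays used as deposited, though not without control 1, without cisplatin 1 or with the ACTB ratio as a covariate. It measured 132, 104 and 114 on cisplatin 1 to 3 and 76.0, 100.4 and 119.9 on control 1 to 3. Control 3 lay above cisplatin 2 and cisplatin 3, so the groups overlapped, and control 1 was the lowest array. The log2 fold was 0.23 (SE 0.18, interval -0.17 to 0.62). It was 0.07 without control 1, 0.14 without cisplatin 1, 0.06 with the covariate and 0.36 without control 3.

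TRAF6, the ubiquitin ligase of interleukin 1 and Toll-like receptor signalling, varied more among treated arrays than among controls. It had 30.9, 79.9 and 61.1 on cisplatin 1 to 3 and 60.0, 43.4 and 56.6 on control 1 to 3. The treated arrays held both the lowest and the highest value. Its log2 fold was 0.02 (SE 0.26, interval -0.57 to 0.62), and it was 0.34 without cisplatin 1 and -0.21 without cisplatin 2.

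TANK, the binding partner, was the least precisely measured. Its intensity was 85.9, 35.0 and 32.8 on cisplatin 1 to 3, against 25.9, 50.4 and 70.2 on control 1 to 3. One treated array, cisplatin 1, was far above the others of its group, and control 1 was the lowest of all. The log2 fold was 0.03 (SE 0.35, interval -0.76 to 0.81), and it was -0.34 without cisplatin 1 and 0.28 without control 3. Cisplatin 1 also had the highest ACTB ratio (3.67) and control 1 the lowest (2.20), and with that ratio as a covariate the log2 fold of TANK was -0.43. An interval this wide covers a difference of the size seen for TRAF4.

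**Figure D2:**
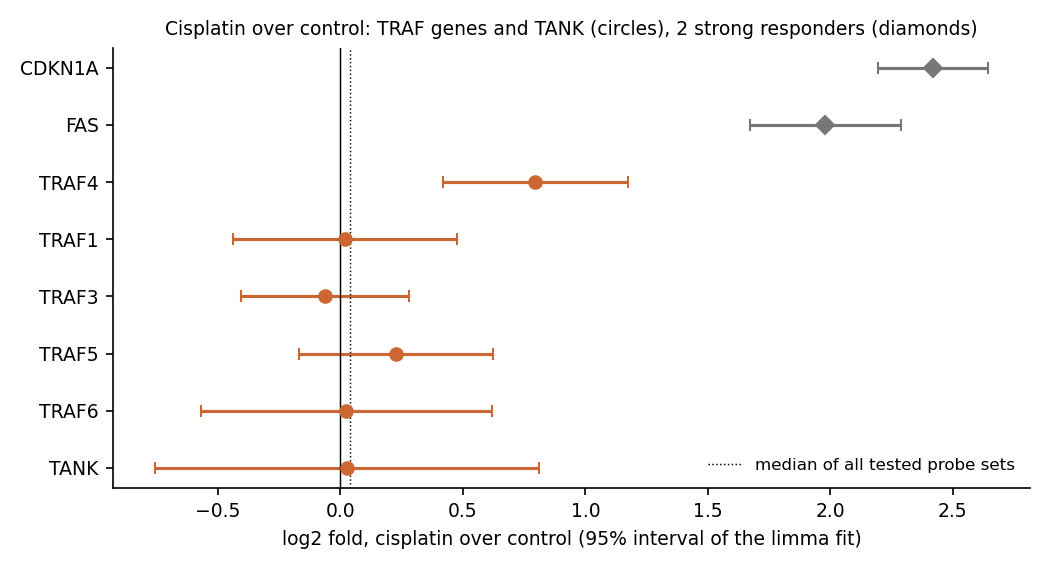
Log2 fold of cisplatin over control with the 95% interval of the limma fit for TRAF4, the other TRAF genes and TANK (circles), and for CDKN1A and FAS (diamonds); the dotted line is the median of all tested probe sets, 0.04. TRAF4 (0.80) was chosen as high on these same arrays, so nothing is read from its place between the strong responders and its relatives. The intervals of the relatives all include 0, and that of TANK reaches 0.81.

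Among the other 5 genes the log2 fold had a median of 0.02 and ran from -0.06 to 0.23, where the median over all tested probe sets was 0.04. TRAF4 lay 0.77 above the median of the others. Taken array by array, the log2 value of TRAF4 minus the median of the other 5 was 1.76, 1.56 and 2.45 on cisplatin 1 to 3, against 1.29, 1.84 and 1.10 on control 1 to 3. These groups overlapped, control 2 lying above cisplatin 1 and cisplatin 2, and their means were 1.93 ± 0.47 after cisplatin and 1.41 ± 0.38 in control cells (SD, n = 3 each), a smaller gap than that between the folds. Comparing TRAF4 with each relative within the same arrays removes any difference in brightness between arrays. The log2 fold of TRAF4 exceeded that of TRAF3 by 0.86 (SE 0.08, n = 3 arrays each). Here the 3 cisplatin and 3 control values of the within-array difference did not overlap. The excess over TRAF5 was 0.57 (SE 0.25), also without overlap of the groups. It was 0.78 (SE 0.35) over TRAF1, 0.77 (SE 0.47) over TRAF6 and 0.77 (SE 0.52) over TANK, and in these 3 cases the groups overlapped. The 3 dimmest members gave the largest errors. TRAF4 was chosen as high on these same arrays, which favours an excess over its relatives. The excesses, their errors and the overlap of the groups are therefore a description and no test.

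Across the 6 arrays the log2 values of TRAF5 had a Pearson r of 0.53 with those of TRAF4, TRAF3 one of 0.24, TANK 0.04, TRAF6 -0.16 and TRAF1 -0.23. These points share the 2 groups and the arrays, and the r values are a description. Among 5815 other genes, 94 had an r of at least 0.9 with TRAF4. The closest were ADORA2B, an adenosine receptor gene (r = 0.99), the stress-induced transcription factor gene ATF3 (0.98), RAD51C of homologous recombination (0.98), the transcription factor gene NFE2L3 (0.98) and PHC1 of a Polycomb complex (0.98). Their changes differed in size. ATF3 had 83.3, 63.4 and 103 on cisplatin 1 to 3 and 25.2, 40.7 and 34.3 on control 1 to 3, a log2 fold of 1.06. ADORA2B had 137, 117 and 145 on cisplatin 1 to 3 and 80.4, 97.5 and 76.6 on control 1 to 3, a log2 fold of 0.58. The log2 folds of RAD51C, PHC1 and NFE2L3 were 0.31, 0.20 and 0.19. Choosing genes by r over these 6 arrays fixes a like order of the arrays, so that order is no separate result. The most opposite were ZNF207, a zinc finger gene (r = -0.97, log2 fold -0.24), and KIF20A, a kinesin gene of cytokinesis (r = -0.96, log2 fold -0.57).

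**Figure D3:**
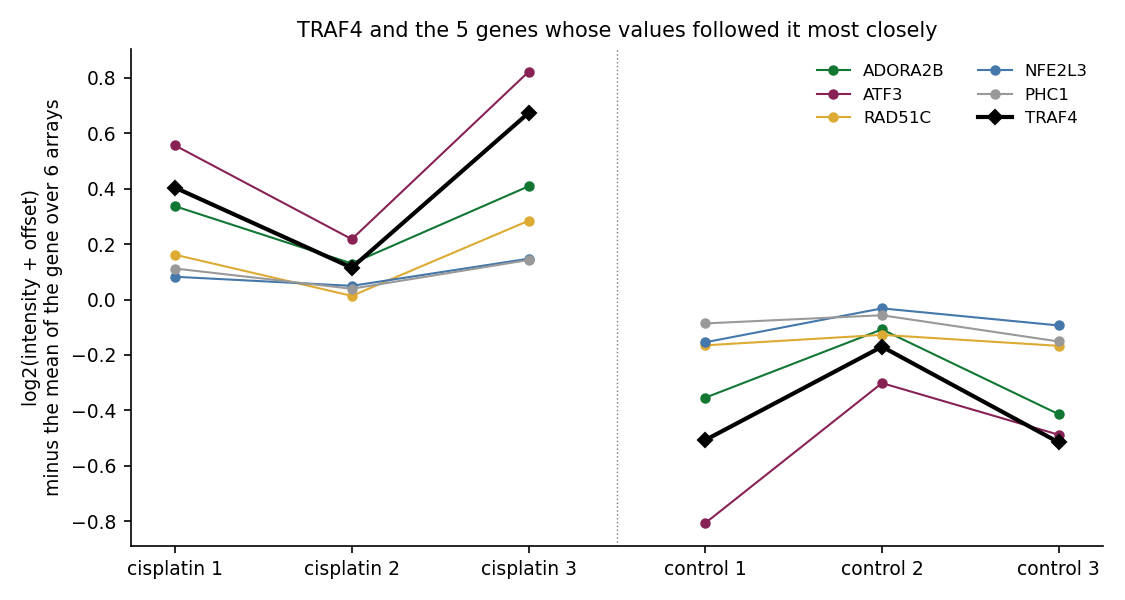
Log2 intensity with the offset, minus each gene's mean over the 6 arrays, for TRAF4 (black diamonds) and the 5 genes with the highest Pearson r (0.98 to 0.99); arrays are on the horizontal axis, cisplatin on the left, and the lines only join a gene's points within a group. All 6 genes lie above their mean on the cisplatin arrays and below it on the control arrays, as the choice by r over the same arrays sets.

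Genes that act around the TRAF proteins were described from 8 lists of 142 genes in all, of which 100 had a probe set with a single gene name and 75 were bright enough to be tested. With limma and adjustment over all probe sets, 0 of the 75 rose and 0 fell. An unadjusted p under 0.05 was found for 5 of them (6.67%), where 5.03% of all tested probe sets had one. The median log2 fold of the 75 was 0.05, against 0.04 over all tested probe sets, with values from -0.38 to 0.62. All were under that of TRAF4, which was chosen as high on these same arrays, so nothing is read from that. Groups did not overlap for 8 of them (10.7%, against 11% of all tested probe sets).

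Of the receptors that recruit TRAF proteins, 11 of 17 with a probe set were tested, 0 passed, and the median log2 fold was 0.14. TNFRSF12A, the receptor for the ligand TWEAK, averaged 285 ± 61.0 after cisplatin and 378 ± 106 in control cells (log2 fold -0.38, SE 0.21), and TNFRSF8, which encodes CD30, averaged 75.9 ± 25.9 after cisplatin and 55.8 ± 6.12 in control cells (0.34, SE 0.21). Of the ligands, 5 of 12 were tested and 0 passed, with a median of 0.16. CD70, the ligand of the receptor CD27, had 74.1, 89.3 and 73.6 on cisplatin 1 to 3 and 44.1, 48.1 and 52.3 on control 1 to 3, without overlap of the groups. Its log2 fold of 0.60 (SE 0.15) had an adjusted p of 0.331 in limma, the lowest of the 75 genes. EDA, the ectodysplasin gene, had a log2 fold of 0.16.

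On the interleukin 1 and Toll-like receptor arm, which signals through TRAF6, 10 of 17 genes were tested, 0 passed, and the median log2 fold was 0.05. IRAK1, the kinase that hands the signal to TRAF6, averaged 2016 ± 42.6 after cisplatin and 2261 ± 84.9 in control cells (log2 fold -0.16, SE 0.07, adjusted p = 0.869 in limma). IL18, an interleukin 1 family cytokine, averaged 161 ± 12.7 after cisplatin and 126 ± 12.4 in control cells (0.33, SE 0.13, adjusted p = 0.890 in limma). The groups did not overlap for either gene. Of the 8 tested partners in receptor complexes 0 passed, with a median of 0.01. CASP8, the initiator caspase of death receptors, had a log2 fold of 0.16 and BIRC2, a ubiquitin ligase bound by TRAF2, one of 0.15.

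Of 13 tested kinases and binding subunits downstream of TRAF proteins 0 passed, and the median log2 fold was 0.02. TAB1, which activates the kinase TAK1, averaged 86.9 ± 18.6 after cisplatin and 65.9 ± 9.19 in control cells (0.33, SE 0.18), and MAP2K6, a kinase that activates p38, averaged 110.3 ± 6.60 after cisplatin and 128 ± 14.5 in control cells (-0.19, SE 0.14). Of the 12 inhibitors 0 passed, with a median of 0.08. SIAH2, a ubiquitin ligase, averaged 58.4 ± 5.98 after cisplatin and 78.8 ± 3.49 in control cells, without overlap (log2 fold -0.37, SE 0.14, adjusted p = 0.826 in limma). USP2, a deubiquitinase, averaged 42.1 ± 11.1 after cisplatin and 23.9 ± 10.3 in control cells (0.62, SE 0.26, adjusted p = 0.925 in limma), the largest log2 fold of the 75, from a dim probe set whose groups overlapped.

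Around TANK, 6 of 9 genes of the TBK1 and IRF arm were tested, 0 passed, and the median log2 fold was 0.13, with IRF7 at 0.22 and IRF5 at 0.17, both interferon regulatory factors. Of the 10 tested partners of TRAF4 in TGF-beta receptor signalling and at cell junctions 0 passed, the median was 0.02, and the values kept within -0.19 and 0.12. PARD3, a polarity protein gene, averaged 367 ± 39.3 after cisplatin and 421 ± 33.1 in control cells (-0.19, SE 0.12). TGFBR2, the type II TGF-beta receptor gene, averaged 577 ± 28.3 after cisplatin and 647 ± 53.5 in control cells (-0.16, SE 0.10).

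**Figure D4:**
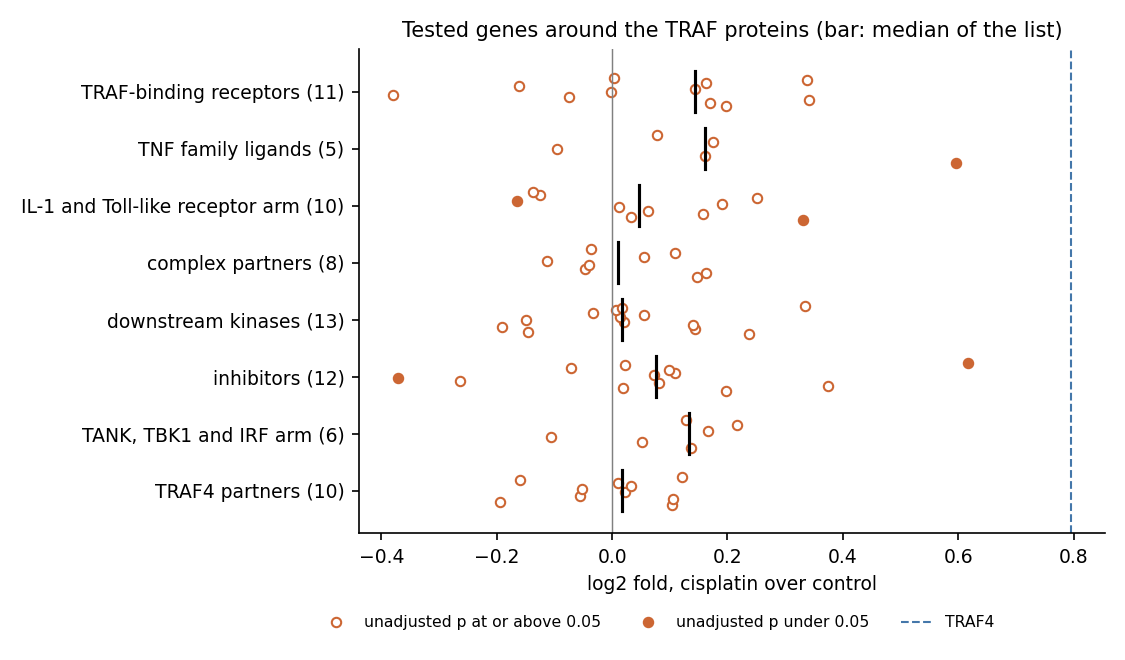
Log2 fold of cisplatin over control for the 75 tested genes of the 8 lists (number tested in brackets); filled points have an unadjusted p under 0.05, black bars are list medians and the dashed line is TRAF4. The list medians lie between 0.01 and 0.16. Every gene lies to the left of TRAF4 (0.80), which was chosen as high on these same arrays, so nothing is read from that.

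The log2 fold of TRAF4 was computed under 16 alternative settings. The fits with other filters, without an intensity trend and with a replicate block cannot change a log2 fold, and it stayed at 0.80. It was 0.72 with arrays centred on their median, 0.75 with quantile normalization, 0.76 with a doubled offset and 0.83 with a floor at the offset. With the ACTB ratio as a covariate it was 0.72. The lowest and highest values came from leaving out arrays, 0.66 without cisplatin 3 and 0.94 without cisplatin 2. Without both control 1 and cisplatin 2 it was 0.88. TRAF4, TRAF3 and TRAF5 were tested in all 16 settings and passed the threshold in 0 of them. TRAF1, TRAF6 and TANK were tested in 15, being too dim for the filter at the 50th percentile, and passed in 0 of those. Without both control 1 and cisplatin 2 the log2 folds were -0.02 for TRAF1, -0.01 for TRAF3, 0.14 for TRAF5, -0.14 for TRAF6 and -0.11 for TANK. In that fit 20 of all tested probe sets passed the threshold. TRAF5 kept a positive value in all 16 settings, from 0.06 to 0.36. TRAF1, TRAF6 and TANK were negative in 6 of the 16 settings each and TRAF3 was positive in 2, so no direction is given for these 4 genes. None is given for TRAF5 either, since its interval in the main fit was -0.17 to 0.62 and all settings reuse the same arrays.

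**Figure D5:**
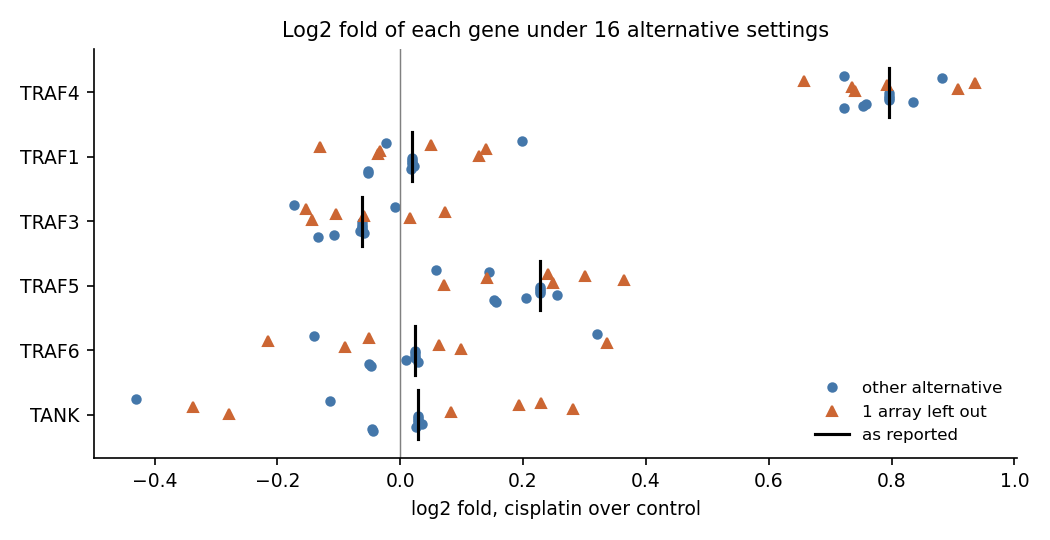
Log2 fold of cisplatin over control for each gene under 16 alternative settings, with fits that leave out 1 array as triangles, other alternatives as circles and the value as reported as a black bar. TRAF4 stays between 0.66 and 0.94 and TRAF5 above 0, while the points of TRAF1, TRAF3, TRAF6 and TANK lie on both sides of 0.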

How the data were processed

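The authors deposited 1 linear intensity per probe set and array, from -512.3 to 9153, with 1.37% at or below 0. The negative values mean that some signal had been subtracted before deposit, and its kind is not known here. For summarisation software and scaling between arrays, the record is: not given in the sources used here. Per the labels' protocols, biotin-labelled target was made from total RNA with a T7-oligo-dT primer.

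Negative values were set to 0, an offset of 11.8 (the 10th percentile of positive values) was added, and log2 was taken. No scaling was added, since the 75th percentiles of the arrays lay within 0.15 of each other in log2, less than the limit of 0.3. Without the 47 control probe sets 8746 remained, and those whose mean log2 reached the 25th percentile, 6559, were tested. The platform's probe table gave 7840 a single symbol, 388 several and 518 none. Cisplatin was set against control by lmFit and eBayes (trend = TRUE) in limma 3.58.1 (R 4.3.3), two-sided, with Benjamini-Hochberg adjustment over all tested probe sets. With 3 arrays a group, an exact permutation test reaches 0.1 at best and was not used. The limma step was tested on simulated data. Within-array differences use the spread of 3 arrays per group. A gene is represented by its brightest tested probe set. Promoters are those of RefSeq on GRCh38.p14, matched by symbol for 7 of 7 genes.

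The members, lists and tests were chosen with earlier results of these data known. Named were every member, and in each list the genes past the threshold or, with 0 past it, the 2 with the lowest unadjusted p, the 5 genes most like TRAF4 and the 2 least like it by Pearson r over 6 arrays, and CDKN1A and FAS. Figures were drawn with matplotlib 3.10.9.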

Additional observations from a re-analysis of the deposited data

How the results depend on the processing

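The log2 fold of TRAF4, its excess over the median of the other 5 genes and the log2 folds of those genes moved by less than 1 SD between replicates under all 16 alternatives. Leaving out 1 array of 3 cannot move a gene's log2 fold by that SD. The other filters, the fit without an intensity trend and the replicate block cannot move it at all. Staying under 1 SD in those settings therefore carries no information. The excess ran from 0.61 to 0.90 over all 16, and from 0.61 to 0.89 with 1 array left out; TRAF4 itself ran from 0.66 to 0.94 with 1 array left out. The count of genes of the 8 lists past the threshold was 0 in limma under all 16. The count of all probe sets past the threshold, 19, was 11 with arrays centred on their median, 8 without the intensity trend, 37 with the ACTB ratio as a covariate and 6 to 18 with 1 array left out (leaving out control 2 or cisplatin 1 gave 6 each, cisplatin 3 gave 7, control 3 gave 8 and cisplatin 2 gave 11); the cause was not tested. In the fit with a replicate block it was 5. Each replicate number has 1 array of each group, so the log2 folds of that fit are by design those of the main fit. Nothing in the labels ties arrays of equal number to 1 experiment, and deviations of equally numbered arrays from their group means correlated at -0.56, -0.31 and -0.12. Signs changed in fits without 1 array for TRAF1 (-0.13 without cisplatin 2, -0.04 without control 2, -0.03 without control 3), TRAF3 (0.07 without cisplatin 2, 0.02 without control 2), TRAF6 (-0.21 without cisplatin 2, -0.05 without cisplatin 3, -0.09 without control 2) and TANK (-0.34 without cisplatin 1, -0.28 without control 1). Without calls of presence, whether the dim probe sets of TRAF1, TRAF6 and TANK lie above background is not known here.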
